A study of Homo sapiens with 24 samples.

Results

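The effect of CX-5461 on gene expression was compared between 2 established human multiple myeloma lines, MM1.S and JJN3, as the log2 fold change against vehicle in JJN3 minus the log2 fold change against vehicle in MM1.S. The libraries were chosen by their labels alone: the 3 vehicle and 3 CX-5461 libraries of each line, 12 of the 24 libraries of the series. A difference below 0 means that CX-5461 raised a gene less, or lowered it more, in JJN3 than in MM1.S, and a difference above 0 means the opposite. CX-5461 is an inhibitor of RNA polymerase I, the enzyme that transcribes ribosomal RNA genes. The series was made to look into the joint action of CX-5461 and panobinostat, an inhibitor of histone deacetylases, in cells with and without p53.

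MM1.S cells are labelled p53 wild type and JJN3 cells p53 null, both otherwise labelled as wild type in genotype. Each group was treated for 24 h, with vehicle in 1 arm and with CX-5461 at 500 nM in the other. The remaining 12 libraries held panobinostat at 50 nM, alone or with CX-5461 at 500 nM, and gave a second, separate comparison of the lines. Polyadenylated RNA was read by sequencing near the 3′ end of transcripts, so the ribosomal RNA made by RNA polymerase I was not measured. The lines differ in far more than p53, each p53 state is represented by 1 line, and line and p53 status cannot be told apart. The treatment field of JJN3 CX-5461 replicates 2 and 3 spells the compound with another last digit, and their titles name CX-5461. Nothing in the labels tells if a group's replicates are separate cultures, and the p-values measure a spread among libraries that may be technical. In bulk RNA, fewer cells with a transcript and less of it per cell cannot be told apart.

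The protein p53 is a transcription factor that is kept low by MDM2, its ubiquitin ligase and own target gene. When ribosome production or DNA is disturbed, free ribosomal proteins or damage kinases block MDM2, p53 accumulates, and genes of cell cycle arrest, apoptosis, DNA repair and metabolism are transcribed. CX-5461 is known to activate p53 in blood cancers and also to cause DNA damage responses that do not need p53.

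Total counts of the 12 libraries ranged from 4912481 to 7305069 (median 6122449.5). Levels are given as CPM (counts scaled to a library of fixed size) at library sizes scaled by the trimmed mean of M values, and group levels as mean ± SD over 3 libraries. A count of 0 in 1 library allows up to 0.656 CPM (3 counts, counting error only). Each of the 10 plasma cell markers had at least 1 count in all 4 groups. Their summed levels were 8880 to 9737 CPM in MM1.S with vehicle and 7117 to 7715 CPM with CX-5461. Over the 6 JJN3 libraries they were 3857 to 5210 CPM. In JJN3 CD38 had only 1 count with vehicle and 2 with CX-5461. SLAMF7 stood at 4.35 and 4.61 CPM in JJN3, against 1159 and 1204 CPM in MM1.S. JCHAIN was higher in JJN3, at 2964 and 2934 CPM against 2586 and 1980 CPM. The 8 myeloid markers summed to 4.15 to 7.65 CPM in MM1.S with vehicle and 13.4 to 14.5 CPM with CX-5461, and in JJN3 to 2.70 to 6.59 and 6.19 to 9.87 CPM. T cell and stromal markers summed to at most 2.79 CPM in any library, and 7 erythroid and platelet genes to 411 to 782 CPM in JJN3 against 16.3 to 22.3 CPM in MM1.S. ALAS2, which starts haem synthesis in erythroid cells, and PPBP, a platelet chemokine, were at 0 in all 12. The part of these markers in the results was not tested. Among the JJN3 libraries the first principal component, 43.3% of the variance, set both libraries of replicate 2 apart from the other 4, whereas in MM1.S it parted CX-5461 from vehicle with 60.3%.

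Across the transcriptome the difference was carried by MM1.S. Of 12872 genes tested, 170 differed between the lines at an adjusted p under 0.05 (1.32%; edgeR quasi-likelihood F test, Benjamini-Hochberg adjustment), 133 of them below 0 (1.03%) and 37 above 0 (0.287%). CX-5461 alone changed 1320 genes in MM1.S (10.3%; 826 higher, 6.42%, and 494 lower, 3.84%) and 8 in JJN3 (0.0622%; 6 lower, 0.0466%, and 2 higher, 0.0155%; 905 at an unadjusted p under 0.05). Of the 133 genes below 0, 130 were called higher in MM1.S, where their median log2 fold change was 1.43. The same 133 genes had a median of -0.02 in JJN3 (quartiles -0.18 and 0.11), 116 lay within 0.5 of 0, and RND3 alone was called lower there. Of the 37 genes above 0, 34 were called lower in MM1.S (median -0.79), with a median of 0.08 in JJN3, where GCSAM alone was called higher. The genes not called in MM1.S were KIAA1549L, RND3 and RORA below 0 and ARPC5, ISG20 and GCSAM above 0. The difference and the 2 line effects share their libraries, so these values describe the difference and do not support it.

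These counts depended on how replicate numbers were treated. Libraries of 1 number deviated together in both lines, and with the replicate number as a block within each line 582 genes differed (4.52%; 372 below 0, 2.89%, and 210 above 0, 1.63%), 169 of the 170 among them. With the block, CX-5461 changed 2580 genes in MM1.S (20%) and 123 in JJN3 (0.956%). Of the 133 genes below 0 the block called FBXL7, KIAA1549L and RND3 lower and ZMAT3 higher in JJN3, and of the 37 above 0 it called ARPC5, DUSP6, GCSAM, ISG20 and RAB36 higher there. The total of 170 was 108 without MM1.S vehicle replicate 1. The 37 genes above 0 became 17 without MM1.S vehicle replicate 1, 20 without vehicle replicate 3, 18 and 22 without MM1.S CX-5461 replicates 1 and 3, 23 without JJN3 vehicle replicate 3, 21 without JJN3 CX-5461 replicate 1, and 70 without JJN3 vehicle replicate 2. The MM1.S count was 850 and 816 without vehicle replicates 1 and 3 and 801 and 848 without CX-5461 replicates 1 and 3, and the JJN3 count was 1 without vehicle replicate 1 or 3, 0, 3 and 14 without CX-5461 replicates 1, 2 and 3.

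**Figure D1:**
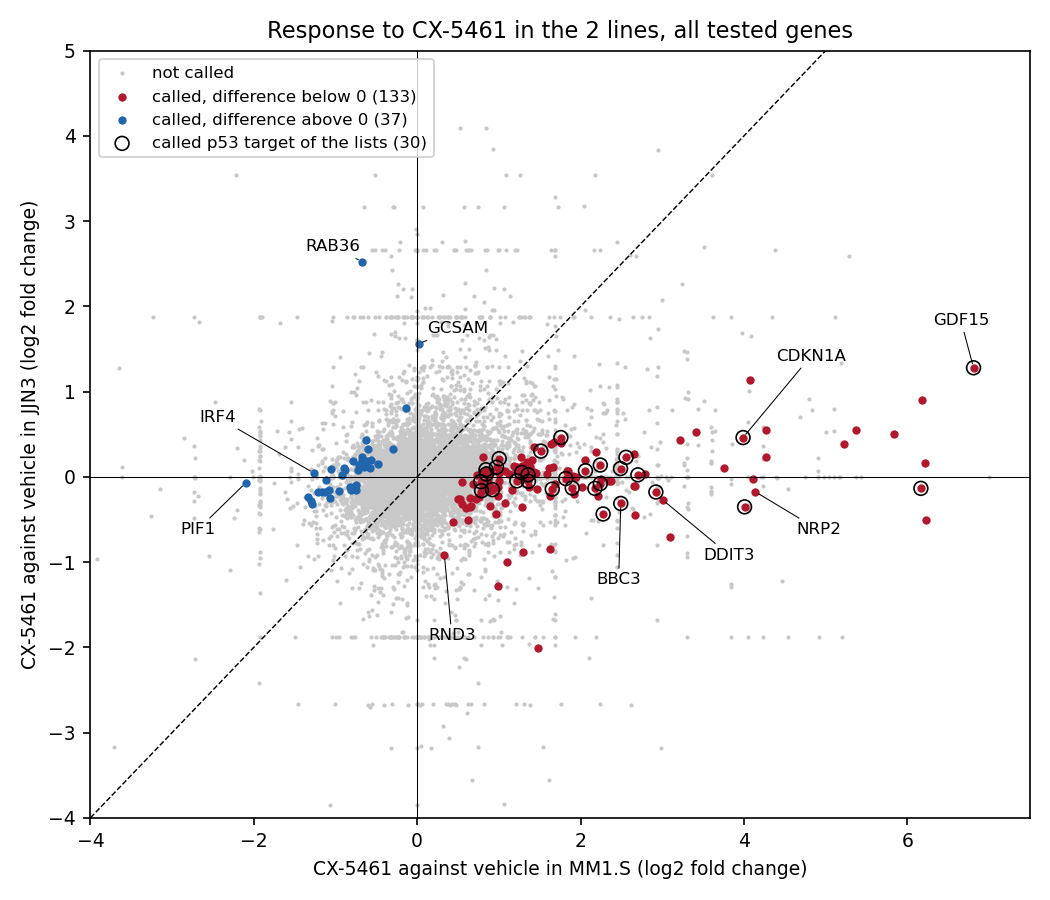
Log2 fold change of CX-5461 against vehicle in MM1.S (horizontal) and JJN3 (vertical) for the tested genes, 9 of which lie outside the axes; red and blue points are the 133 and 37 genes called below and above 0, rings the 30 called p53 targets, and the dashed line marks equal effects. Most red points spread along the horizontal axis to the right of 0 and stay near 0 on the vertical one, and rows of grey points are genes with few counts.

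The sequences just around the start sites of 4 p53 targets that differed are shown first, because among the promoters of called genes they hold the closest matches to a p53 binding site, ties taken by the size of the difference. The p53 tetramer binds a pair of short sites of 10 bases each. Windows of 300 bases (250 before to 50 after the RefSeq start, build GRCh38.p14) were searched on both strands for 2 such sites, 0 or 1 base apart, with the core C and G of each kept and at most 3 mismatches over 20 positions. Capitals mark the pair, the strand is that of the gene, and GLS2 had 2 mismatches and the other 3 genes 3 each.
GLS2, chr12:56488112-56488411, minus strand: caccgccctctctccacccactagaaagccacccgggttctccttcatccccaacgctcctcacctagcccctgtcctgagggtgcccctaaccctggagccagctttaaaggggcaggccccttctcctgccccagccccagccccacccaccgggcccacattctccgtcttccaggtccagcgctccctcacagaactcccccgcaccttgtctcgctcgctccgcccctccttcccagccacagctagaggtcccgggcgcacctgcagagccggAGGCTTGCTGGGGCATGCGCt
GDF15, chr19:18385908-18386207, plus strand: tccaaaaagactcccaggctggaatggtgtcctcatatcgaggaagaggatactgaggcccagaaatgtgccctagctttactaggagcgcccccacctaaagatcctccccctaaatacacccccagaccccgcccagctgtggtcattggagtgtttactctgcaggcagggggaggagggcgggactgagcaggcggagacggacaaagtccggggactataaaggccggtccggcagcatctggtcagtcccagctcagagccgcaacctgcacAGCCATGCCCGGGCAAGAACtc
FDXR, chr17:74872945-74873244, minus strand: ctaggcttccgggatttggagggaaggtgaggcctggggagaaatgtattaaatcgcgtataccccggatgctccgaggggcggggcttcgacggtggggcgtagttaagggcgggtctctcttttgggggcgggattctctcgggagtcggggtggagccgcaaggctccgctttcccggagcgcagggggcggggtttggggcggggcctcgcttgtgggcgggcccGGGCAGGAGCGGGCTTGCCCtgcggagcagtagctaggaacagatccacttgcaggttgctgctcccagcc
PMAIP1, chr18:59899746-59900045, plus strand: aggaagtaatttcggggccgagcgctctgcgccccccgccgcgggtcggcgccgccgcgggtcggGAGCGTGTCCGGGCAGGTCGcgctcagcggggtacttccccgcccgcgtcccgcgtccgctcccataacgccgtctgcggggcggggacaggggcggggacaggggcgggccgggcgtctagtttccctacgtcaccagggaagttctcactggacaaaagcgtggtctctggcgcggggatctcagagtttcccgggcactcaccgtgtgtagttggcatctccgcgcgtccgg

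In GLS2 and GDF15 the pair started 29 and 28 bases after the RefSeq start, in FDXR and PMAIP1 21 and 185 bases before it. A pair was present in 6 of 105 promoters of genes below 0 (5.71%), namely these 4, PLXNB2 and RPS27L, and in 1 of 31 promoters of genes above 0 (3.23%), that of PLEKHA8. It was present in 8 of 62 promoters of the p53 target lists (12.9%), in 1 of 79 promoters of genes below 0 outside those lists (1.27%), and in 219 of all 10323 promoters of tested genes (2.12%). With at most 2 mismatches the shares were 0.952% below 0, 0% above 0 and 0.368% of all. With at most 4 they were 12.4% below 0, 19.4% above 0 (6 of 31) and 8.61% of all. The order of the genes below and above 0 thus depended on the mismatches allowed. Genes below 0 outside the p53 lists stood at 7.59% with at most 4 mismatches, under the share of all. A match describes letters and not a bound site, and the best known p53 sites of CDKN1A and MDM2 lie outside such windows, in a distal upstream region and in an intron.

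Direct targets of p53 made up 30 of the 133 genes below 0 (22.6%), against 0.575% of all tested genes, and none of the 37 above 0. The 6 p53 lists held 80 targets, of which 74 were tested. Among the 74, 30 were called below 0 and 0 above 0, and 47 were called higher in MM1.S, 0 lower, and 0 in either direction in JJN3. Over all tested genes 6.42% were called higher in MM1.S and 0.0622% in either direction in JJN3. At that JJN3 share the count of 0 does not set the p53 targets apart. With the replicate block ZMAT3 and ARHGEF3 were called higher and MDM4 lower in JJN3. The median difference over the 74 was -0.99, with 63 of 74 below 0, while the median over all genes was -0.01 with 51.0% below 0. Of these targets 3 had a group at 0 counts. With such groups set to 3 counts, and 1 gene that had no such bound left out, the median was -0.98. Between 25 and 29 members were called when 1 library was left out, and 38 with the replicate block. The response of the p53 targets of MM1.S was already known from these data, and the lists were drawn up with it in view.

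Among the 8 feedback regulators, 2 differed, both below 0. MDM2 stood at 345, 289 and 403 CPM in the MM1.S vehicle libraries and at 1374, 1504 and 1450.5 CPM with CX-5461. In JJN3 it stood at 53.9, 57.7 and 64.2 CPM with vehicle and 57.0, 61.0 and 67.2 CPM with CX-5461. The MM1.S groups were far apart, whereas the JJN3 groups overlapped at a level below that of untreated MM1.S. The difference was -1.99 ± 0.21 (log2 ± SE; adjusted p = 3.85e-07). PPM1D, a phosphatase that turns off p53 and its upstream kinases, rose from 18.2 ± 2.14 to 52.2 ± 1.6 CPM in MM1.S and stood at 20.2 ± 1.38 and 24.9 ± 2.97 CPM in JJN3. All 3 CX-5461 libraries of JJN3 lay above all vehicle libraries for PPM1D, an order found for 4.85% of tested genes in JJN3. The JJN3 effect of 0.30 ± 0.13 was not called (adjusted p = 0.66, and 0.336 with the replicate block). The lines differed by -1.21 ± 0.19 (adjusted p = 1.76e-04). CCNG1, cyclin G1, did not pass (-0.41 ± 0.22, adjusted p = 0.502) and was not called in either line.

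The arrest and growth group held the gene with the smallest adjusted p among the named genes. CDKN1A encodes p21, which blocks cyclin-dependent kinases. Its level in MM1.S was 47.3, 38.7 and 51.6 CPM with vehicle and 677, 765 and 752 CPM with CX-5461. In JJN3 it was 22.2, 29.2 and 26.6 CPM with vehicle and 31.0, 47.8 and 29.1 CPM with CX-5461, where the groups overlapped. The difference of -3.53 ± 0.24 (adjusted p = 5.27e-11) set a rise of 3.99 in MM1.S against 0.46 ± 0.18 in JJN3, whose 95% interval ran from 0.10 to 0.82 without passing the adjusted threshold (adjusted p = 0.56).

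Of 15 tested members of this group, 5 differed, all below 0 (CDKN1A, PHLDA3, GDF15, ZMAT3 and GADD45A), and 8 with the replicate block. PHLDA3, which restrains the kinase AKT, rose in MM1.S from 13.4, 17.3 and 27.8 CPM to 309.9, 329 and 308 CPM. It had 9 and 7 counts over the 3 vehicle and 3 CX-5461 libraries of JJN3, at 0.513 ± 0.299 and 0.408 ± 0.104 CPM. Its difference of -4.36 ± 0.81 (adjusted p = 0.00217) rests on those few counts, and without JJN3 vehicle replicate 3 it was not called (adjusted p = 0.102). GDF15, a secreted stress cytokine, was nearly silent without the drug in both lines, with 7 counts over the MM1.S and 10 over the JJN3 vehicle libraries. It reached 55.8, 50.5 and 44.4 CPM with CX-5461 in MM1.S and 2.45, 1.31 and 0.647 CPM in JJN3. The difference was -5.53 ± 1.19 (adjusted p = 0.0123) and was not called without JJN3 vehicle replicate 1 (adjusted p = 0.134).

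ZMAT3, a zinc finger protein that binds RNA, rose from 7.80 ± 0.991 to 26.5 ± 2.12 CPM in MM1.S and stood at 27.4 ± 3.44 and 37.8 ± 6.17 CPM in JJN3. Its groups did not overlap in JJN3 either, the JJN3 effect was 0.46 ± 0.14 (adjusted p = 0.334, and 0.0276 with the replicate block), and the difference was -1.30 ± 0.21 (adjusted p = 4.13e-04). Groups with all CX-5461 libraries above all vehicle libraries were found for 4.85% of tested genes in JJN3 and 18.4% in MM1.S, and groups in the opposite order for 4.97% and 15.9%. SESN1 and SESN2, sestrins that restrain the growth kinase mTORC1, were called higher in MM1.S (0.93 ± 0.16 and 1.34 ± 0.41), yet their differences of -0.79 ± 0.24 and -1.30 ± 0.61 were not (adjusted p = 0.105 and 0.443). SESN1 passed with the replicate block (adjusted p = 0.0159) and without JJN3 vehicle replicate 3, the lowest adjusted p among the leave-one-out fits being 0.0185. SESN2 was at 28.3, 149.9 and 37.2 CPM in the MM1.S vehicle libraries, replicate 2 standing far above the other 2, and without that library its difference passed, at -2.41 with an adjusted p of 1.95e-06. BTG2, an antiproliferative gene, was not called between the lines (-0.21 ± 0.21, adjusted p = 0.804). Its MM1.S effect of 0.29 ± 0.14 had an adjusted p of 0.224, and of 0.0213 with the block.

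In the apoptosis group 6 of 16 tested genes differed, all below 0 (9 with the replicate block). BBC3 encodes PUMA and PMAIP1 encodes NOXA, BH3-only proteins that neutralise survival members of the BCL2 family. BBC3 stood at 69.0, 94.0 and 78.0 CPM in MM1.S with vehicle and 419, 497 and 438 CPM with CX-5461. In JJN3 it was at 353, 433 and 258 CPM with vehicle and 279, 344 and 218 CPM with CX-5461. Every untreated JJN3 library lay above every untreated MM1.S library, the JJN3 groups overlapped, and the difference was -2.80 ± 0.23 (adjusted p = 6.49e-09). PMAIP1 showed the same layout, at 5.49 ± 3.26 and 34.6 ± 3.53 CPM in MM1.S and 33.2 ± 4.40 and 33.9 ± 6.44 CPM in JJN3, with a difference of -2.68 ± 0.34 (adjusted p = 1.03e-05). With CX-5461 the PMAIP1 levels of the lines covered overlapping ranges.

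FAS and TNFRSF10B encode the death receptors for FAS ligand and TRAIL. FAS rose from 2.21 ± 0.633 to 12.7 ± 1.89 CPM in MM1.S, while JJN3 held 24.7 ± 4.35 CPM with vehicle and 26.4 ± 3.26 CPM with CX-5461. The difference was -2.39 ± 0.34 (adjusted p = 4.34e-05), although every JJN3 library lay above every MM1.S library. TNFRSF10B was ordered the other way, at 20.0 ± 3.5 and 95 ± 6.11 CPM in MM1.S and 7.19 ± 0.796 and 7.95 ± 1.62 CPM in JJN3, with a difference of -2.10 ± 0.25 (adjusted p = 2.84e-06). BAX, which forms pores in the mitochondrial outer membrane, was called higher in MM1.S (1.51 ± 0.30). Its difference of -1.52 ± 0.48 was not called (adjusted p = 0.129). It was called with the replicate block (adjusted p = 0.032) and without the filter on low counts. AEN, a nuclease of apoptosis, behaved alike at -1.46 ± 0.38, with an adjusted p of 0.0731 without and 1.53e-08 with the block, and its call also appeared without JJN3 vehicle replicate 1 or JJN3 CX-5461 replicate 2 (lowest adjusted p 0.0265). SPATA18 did not pass the filter on low counts and was not tested.

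**Figure D2:**
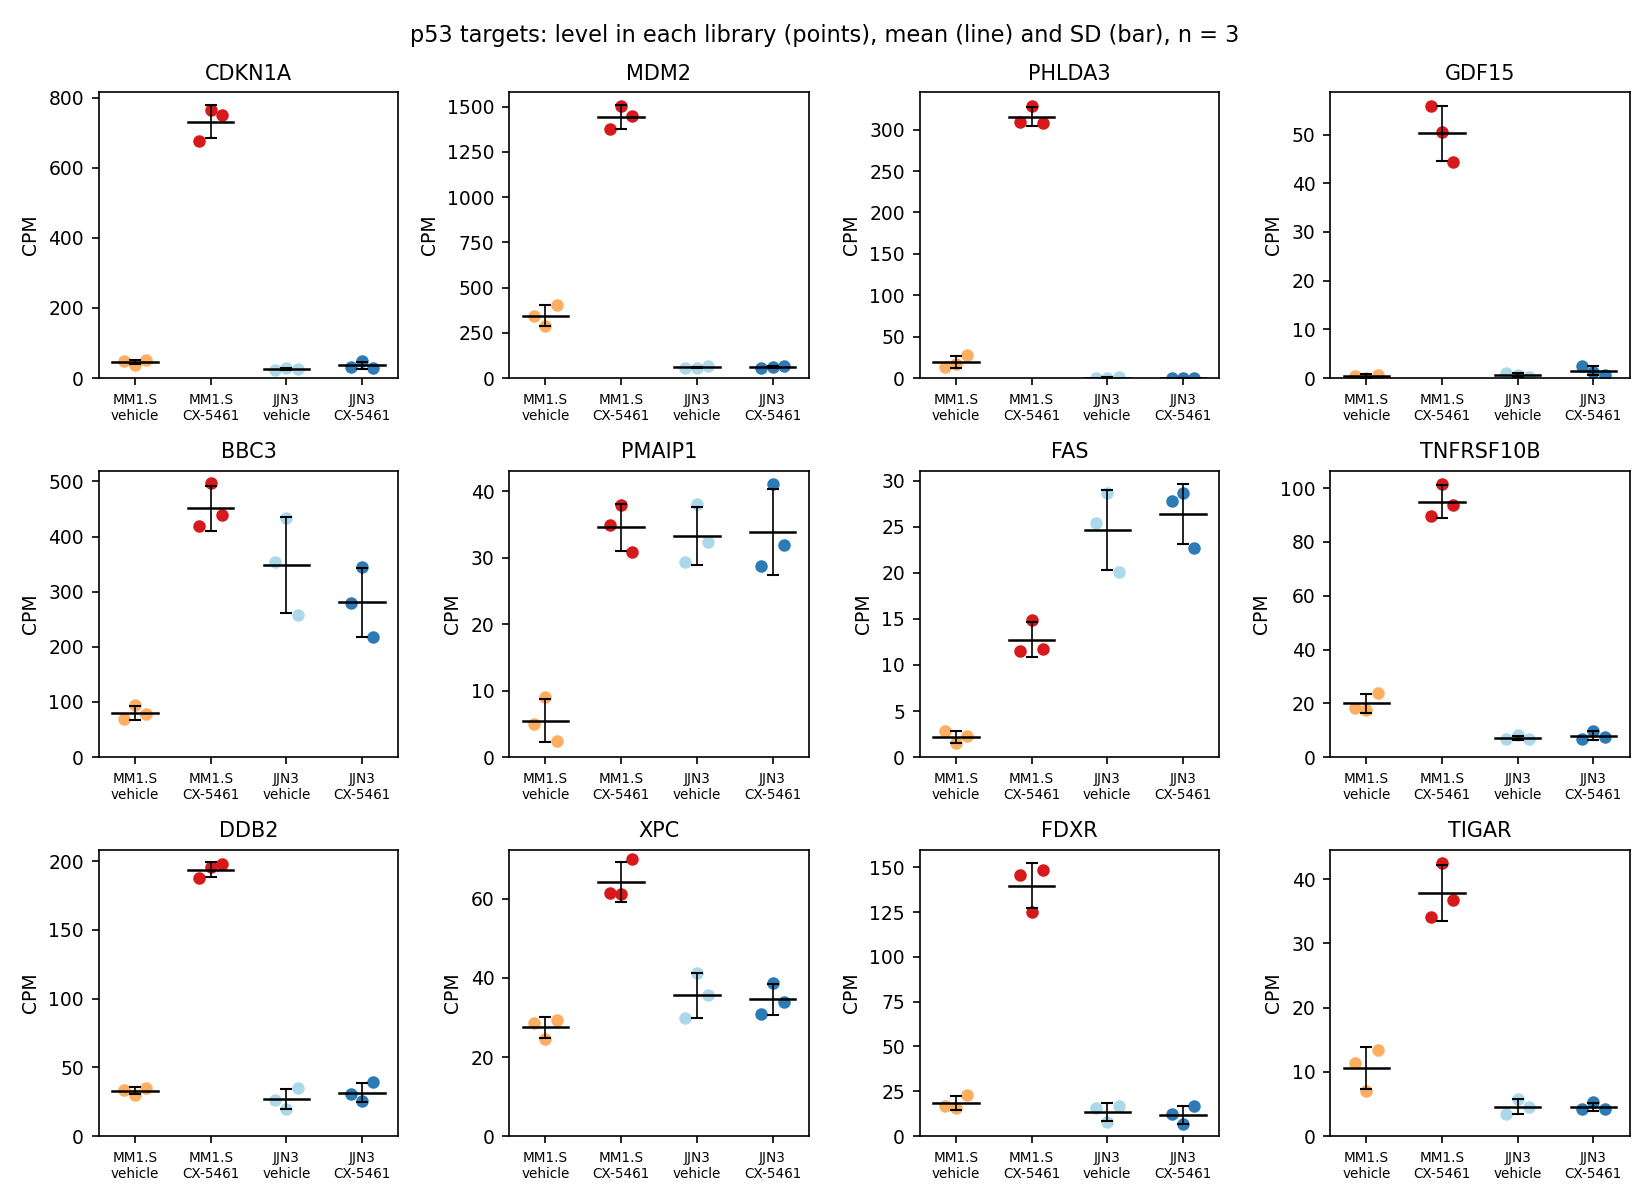
Level in CPM of 12 p53 targets in each library (points), with the mean (line) and SD (bar) of the 3 libraries of each of the 4 groups; every axis starts at 0. In each panel the MM1.S CX-5461 libraries lie above all MM1.S vehicle libraries, while the JJN3 groups overlap, and for BBC3, PMAIP1, FAS and XPC untreated JJN3 starts above untreated MM1.S.

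The DNA repair group had the largest share of members that differed, 6 of 8 tested. DDB2 and XPC, which find ultraviolet-type lesions for nucleotide excision repair, rose in MM1.S from 32.9 ± 2.58 to 194 ± 5.33 CPM and from 27.5 ± 2.63 to 64.2 ± 5.09 CPM. In JJN3 DDB2 stood at 26.9 ± 7.5 and 31.6 ± 6.93 CPM and XPC at 35.6 ± 5.66 and 34.6 ± 3.98 CPM. Their differences were -2.33 ± 0.23 and -1.27 ± 0.20 (adjusted p = 6.05e-08 and 1.83e-04). RPS27L, a ribosomal protein paralogue, rose from 219 ± 14.1 to 560.0 ± 74.0 CPM in MM1.S and stood at 126 ± 12.9 and 128 ± 19.6 CPM in JJN3 (difference -1.33 ± 0.18, adjusted p = 2.95e-05). RRM2B, a subunit of ribonucleotide reductase, and POLH, the polymerase that copies past lesions, differed less, by -0.79 ± 0.19 (adjusted p = 0.029) and -0.81 ± 0.18 (adjusted p = 0.014). The call of RRM2B was lost in 7 of 12 leave-one-out fits, the highest adjusted p of 0.0958 coming without JJN3 vehicle replicate 3, and that of POLH without MM1.S CX-5461 replicate 3 (adjusted p = 0.0503).

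Of 12 tested targets of metabolism and autophagy, 5 differed, all below 0. FDXR, the mitochondrial ferredoxin reductase, stood at 16.7, 15.5 and 22.6 CPM in MM1.S with vehicle and 146, 125 and 148 CPM with CX-5461. JJN3 held 15.8, 7.75 and 16.9 CPM with vehicle and 12.1, 6.75 and 16.7 CPM with CX-5461, with replicate 2 the lowest in both groups. The groups were apart in MM1.S and overlapped in JJN3, and the difference was -3.10 ± 0.37 (adjusted p = 1.37e-05). GLS2, a mitochondrial glutaminase (-2.71 ± 0.43, adjusted p = 2.45e-04), DRAM1, a lysosomal protein of autophagy (-2.32 ± 0.34, adjusted p = 8.15e-05), and TIGAR, which diverts sugar from glycolysis (-1.84 ± 0.34, adjusted p = 0.00227), differed in the same direction. SAT1, which acetylates polyamines, was called higher in MM1.S (1.53 ± 0.20) and stood at 0.51 ± 0.19 in JJN3, and the difference of -1.02 ± 0.27 was not called (adjusted p = 0.0648). It was called with DESeq2 (adjusted p = 0.0215), without the filter on low counts (4.78e-05), in a fit of the 12 libraries alone (0.017) and without the JJN3 libraries of replicate 2 (0.0316). Of 15 other tested targets 6 differed, all below 0, among them NINJ1, which ruptures the membrane of dying cells (-1.80 ± 0.36, adjusted p = 0.00504), and SLC12A4, a potassium chloride cotransporter (-1.23 ± 0.27, adjusted p = 0.0104). The call of SLC12A4 was lost without JJN3 vehicle replicate 3 (adjusted p = 0.0545).

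Outside the p53 lists stood 103 of the 133 genes below 0, and 88 of the 133 were in none of the lists examined. TNFSF9, the ligand of the T cell receptor 4-1BB, had the second smallest adjusted p of the named genes, after CDKN1A. Its level was 5.22, 3.93 and 3.80 CPM in MM1.S with vehicle and 65.0, 59.2 and 51.9 CPM with CX-5461. JJN3 held 27.6, 27.9 and 28.4 CPM with vehicle and 30.4, 32.6 and 27.5 CPM with CX-5461. The drug took MM1.S from below to above the JJN3 level, and the difference was -3.64 ± 0.30 (adjusted p = 1.69e-09).

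NRP2, a receptor for semaphorins and VEGF, and IL32, a cytokine of lymphoid cells, were close to silent in MM1.S and abundant in JJN3. NRP2 had 3 counts over the 3 MM1.S vehicle libraries and 74 with CX-5461, a ratio of 19.6 (95% counting interval 6.45 to 97.1), against 48.8 ± 0.993 and 43.2 ± 1.27 CPM in JJN3. IL32 had 1 count and 29 counts, a ratio of 23.0 (3.82 to 941), against 802 ± 145 and 788 ± 93.3 CPM in JJN3. In both cases MM1.S with CX-5461 stayed far below JJN3, and the fitted differences of -4.31 ± 0.58 and -4.13 ± 0.81 (adjusted p = 1.89e-05 and 0.00367) rest on the few counts of untreated MM1.S. TENT5A, a poly(A) polymerase of plasma cells, had more counts and the same order, from 2.35 ± 0.687 to 14.9 ± 1.19 CPM in MM1.S and at 119 ± 18.8 and 110.2 ± 20.4 CPM in JJN3 (difference -2.78 ± 0.31, adjusted p = 6.98e-07).

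VWCE, CREB5 and GPR55 also rose in MM1.S. VWCE, an extracellular von Willebrand domain protein, and GPR55, a lipid receptor, differed by -3.11 ± 0.59 and -2.76 ± 0.64 (adjusted p = 0.00277 and 0.0227), the latter losing its call in 5 of 12 leave-one-out fits (highest adjusted p 0.108, without MM1.S vehicle replicate 1). CREB5, a transcription factor that binds cyclic AMP response elements, stood at 1.74, 2.62 and 1.65 CPM with vehicle and 25.2, 50.4 and 24.4 CPM with CX-5461 in MM1.S, where replicate 2 was the highest in both groups. In JJN3 it stood at 1.40, 2.88 and 1.82 CPM and 3.5, 7.69 and 2.59 CPM, again with replicate 2 the highest in both. Its difference was -2.94 ± 0.58 (adjusted p = 0.00478), beside a JJN3 effect of 1.14 ± 0.41 that was not called (adjusted p = 0.523). In a fit of the 12 libraries alone the difference was not called (adjusted p = 0.0508).

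Genes of the integrated stress response, which ATF4 drives when translation is held back, differed for 5 of 36 tested members, all below 0, with a median of -0.34 over the 36. DDIT3 encodes CHOP, a transcription factor of cell death under stress. It stood at 3.48, 7.65 and 4.30 CPM in MM1.S with vehicle and 38.5, 45.9 and 37.0 CPM with CX-5461, and in JJN3 at 6.59, 7.39 and 5.31 CPM and 5.07, 6.19 and 4.69 CPM. The lines overlapped without the drug and were apart with it, and the difference was -3.28 ± 0.33 (adjusted p = 9.65e-08). TRIB3, a pseudokinase that DDIT3 and ATF4 induce, differed by -1.22 ± 0.21 (adjusted p = 7.54e-04). It rose from 35.2 ± 9.30 to 69.4 ± 7.75 CPM in MM1.S and stood at 35.4 ± 1.96 and 30.2 ± 2.17 CPM in JJN3. All CX-5461 libraries of JJN3 lay below vehicle for TRIB3, as for 4.97% of tested genes. The ATF3 difference of -2.79 ± 0.65 (adjusted p = 0.0297) was not called with the replicate block (adjusted p = 0.107) nor in 6 of 12 leave-one-out fits (highest adjusted p 0.179, without JJN3 vehicle replicate 2). HSPA5, the chaperone of the endoplasmic reticulum known as BiP, did not pass between the lines (0.44 ± 0.30, adjusted p = 0.661).

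Immediate early genes moved apart in both directions, with 3 of 23 below 0 and 2 above 0 (6 and 2 with the block). The median over the 23 was -0.66, or -0.57 with groups at 0 counts set to their bound and 1 member without a bound left out. JUN, a subunit of AP-1, rose from 70.6, 108 and 72.2 CPM to 314, 333 and 288 CPM in MM1.S. In JJN3 it stood at 126, 204 and 126 CPM with vehicle and 144, 207 and 110.1 CPM with CX-5461, replicate 2 being the highest in both groups. The difference was -1.89 ± 0.39 (adjusted p = 0.0161, 2.11e-13 with the block), and it was not called without MM1.S vehicle replicate 1 or 3 or JJN3 CX-5461 replicate 1 (highest adjusted p 0.0664). IER5, a growth factor and heat shock responsive gene, rose from 309 ± 18.8 to 1282 ± 28.4 CPM in MM1.S and stood at 191 ± 24.5 and 219 ± 42.8 CPM in JJN3 (difference -1.86 ± 0.19, adjusted p = 9.65e-08). KLF2, a transcription factor of lymphocyte quiescence, and DUSP6, a phosphatase of ERK, differed by 1.08 ± 0.23 and 1.07 ± 0.25 (adjusted p = 0.00762 and 0.0214) after falling in MM1.S. With the replicate block DUSP6 was also called higher in JJN3 (0.44 ± 0.18, adjusted p = 0.0304, against 0.591 without it). The call of DUSP6 was lost in 5 of 12 leave-one-out fits (highest adjusted p 0.082, without MM1.S vehicle replicate 1).

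Of 20 tested NF-kB subunits and targets, 3 differed, all below 0 (5 with the replicate block). RELB, a subunit of the noncanonical pathway, rose from 41.3 ± 1.16 to 112 ± 8.41 CPM in MM1.S and stood at 41.0 ± 6.84 and 52.2 ± 4.08 CPM in JJN3. There, too, all CX-5461 libraries lay above vehicle for RELB, as for 4.85% of tested genes. The RELB difference was -1.08 ± 0.19 (adjusted p = 8.62e-04). BIRC3, an inhibitor of apoptosis that also acts in this pathway, differed by -1.05 ± 0.18 (adjusted p = 8.59e-04), with 81.9 ± 3.17 and 151 ± 12 CPM in MM1.S and 849 ± 73.1 and 757 ± 31.7 CPM in JJN3. BIRC3 was also the only 1 of 10 anti-apoptotic genes that differed. Of 32 interferon-stimulated genes only ISG20 differed, above 0 (0.95 ± 0.25, adjusted p = 0.0457). The median over the 32 was -0.49, and -0.34 without the 7 members that had a group at 0 counts. ISG20 was picked out after its values were seen.

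Genes of DNA replication leaned below 0 with few calls. Of 49 tested, 44 lay below 0, the median difference was -0.40, and 2 were called (12 with the replicate block), while 20 were called higher in MM1.S and 0 in JJN3 (37 and 1, FEN1, with the block, which also called MCM4 lower in JJN3). LIG1, which joins Okazaki fragments, and GINS4, a part of the replicative helicase, differed by -1.08 ± 0.24 and -1.24 ± 0.30 (adjusted p = 0.0143 and 0.028). LIG1 lost its call without MM1.S vehicle replicate 1 or JJN3 vehicle replicate 3 (highest adjusted p 0.0665), and GINS4 in 6 of 12 leave-one-out fits (highest adjusted p 0.136, without JJN3 vehicle replicate 3). TK1, thymidine kinase, rose from 57.1 ± 6.08 to 142 ± 22.1 CPM in MM1.S and stood at 116, 45.6 and 107 CPM and 119, 63.4 and 108 CPM in JJN3, where replicate 2 was the lowest in both groups. Its difference of -1.19 ± 0.49 had an adjusted p of 0.356, and of 1.06e-06 with the block. CDT1, which licenses origins, differed by -0.92 ± 0.25, with an adjusted p of 0.0618 without and 0.00511 with the block. Without MM1.S vehicle replicate 2, JJN3 vehicle replicate 2 or JJN3 CX-5461 replicate 3 CDT1 was called as well (lowest adjusted p 0.000443).

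Of 48 genes of damage signalling and repair, EXO1, an exonuclease, and RAD51C, a recombination factor, differed, by -1.31 ± 0.29 and -0.58 ± 0.15 (adjusted p = 0.0134 and 0.0461), and 5 of the 48 did with the replicate block. The former was not called without JJN3 vehicle replicate 3 (adjusted p = 0.0859) and the latter in 10 of 12 leave-one-out fits (highest adjusted p 0.145, without JJN3 vehicle replicate 3). The topoisomerases, which CX-5461 is reported to engage, were not called: TOP1 differed by 0.19 ± 0.15, TOP2A by -0.01 ± 0.17 and TOP2B by 0.49 ± 0.14, with 95% intervals of -0.12 to 0.50, -0.35 to 0.33 and 0.21 to 0.78. TOP2B passed with the replicate block (adjusted p = 0.00598), having fallen in MM1.S (-0.50 ± 0.10).

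On the other side of 0 were genes that fell in MM1.S. IRF4, a survival factor of myeloma cells that acts on transcription, stood at 286, 313 and 294 CPM in MM1.S with vehicle and 118, 125 and 129 CPM with CX-5461. JJN3 held 190.0, 181 and 259 CPM and 228, 181 and 241 CPM. The MM1.S groups did not overlap, the JJN3 groups did, and the difference was 1.31 ± 0.19 (adjusted p = 9.37e-05). TNFRSF17, which encodes the plasma cell receptor BCMA, fell from 472 ± 49.6 to 310.1 ± 40.9 CPM in MM1.S and stood at 93.6 ± 24.4 and 118 ± 26.9 CPM in JJN3 (difference 0.94 ± 0.23, adjusted p = 0.0257). Its call was lost without MM1.S vehicle replicate 1, MM1.S CX-5461 replicate 3 or JJN3 CX-5461 replicate 1 (highest adjusted p 0.103). IRF4 and TNFRSF17 were the 2 of 21 tested plasma cell identity genes that differed (4 with the block). MYC fell in MM1.S (-1.06 ± 0.25) and stood at -0.43 ± 0.22 in JJN3, a difference of 0.63 ± 0.33 that was not called (adjusted p = 0.508).

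Of 23 genes of cholesterol synthesis and uptake, 3 differed, all above 0 (9 with the replicate block). Called lower were 11 in MM1.S and 0 in JJN3 (1, INSIG1, with the block). Over all tested genes 3.84% were called lower in MM1.S and 0.0466% in JJN3, so the count of 0 in JJN3 does not set these genes apart. MSMO1 stood at 100.3, 71.5 and 101 CPM with vehicle and 32.6, 33.6 and 42.5 CPM with CX-5461 in MM1.S, where the groups were apart. In JJN3 it stood at 129, 132 and 72.4 CPM and 109, 102 and 71.5 CPM, and the groups overlapped. MSMO1, a sterol demethylase, and FDFT1, squalene synthase, differed by 1.09 ± 0.27 and 0.65 ± 0.16 (adjusted p = 0.0387 and 0.0256), but lost their calls in 7 and 5 of 12 leave-one-out fits (highest adjusted p 0.142, without MM1.S vehicle replicate 1, and 0.121, without MM1.S CX-5461 replicate 1). HMGCS1, an early enzyme of the pathway, and INSIG1 were called lower in MM1.S, and their differences of 0.68 ± 0.20 and 0.34 ± 0.21 were not called (adjusted p = 0.0951 and 0.596). HMGCS1 passed with the block (adjusted p = 0.00152) and without MM1.S vehicle replicate 2 or JJN3 vehicle replicate 2 (lowest adjusted p 0.0235). INSIG1, which holds back the sterol sensor, also had all JJN3 CX-5461 libraries below vehicle, as did 4.97% of tested genes. Its JJN3 effect was -0.61 ± 0.15 (adjusted p = 0.116, and 3.27e-04 with the block). SCD, the stearoyl-CoA desaturase, was the only 1 of 11 fatty acid genes that differed, at 1945 ± 96.6 and 864 ± 80.2 CPM in MM1.S and 916 ± 165 and 809 ± 104 CPM in JJN3 (difference 0.99 ± 0.19, adjusted p = 0.00227).

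Of 50 tested genes of the endoplasmic reticulum and secretion, 49 lay above 0, with a median of 0.39, and 4 were called (13 with the block). SSR1, a subunit at the protein translocation pore, and SPCS2, of the signal peptidase, fell in MM1.S from 494 ± 22.7 to 280.0 ± 7.72 CPM and from 119.6 ± 4.46 to 74.9 ± 5.38 CPM. In JJN3 SSR1 stood at 609.6 ± 40.6 and 563 ± 13.1 CPM and SPCS2 at 74.4 ± 8.99 and 87.1 ± 12.9 CPM. They differed by 0.70 ± 0.14 and 0.90 ± 0.18 (adjusted p = 0.00478 and 0.0056). PDIA4, a disulfide isomerase, differed by 0.82 ± 0.21 (adjusted p = 0.0375) and lost its call in 9 of 12 leave-one-out fits (highest adjusted p 0.155, without JJN3 vehicle replicate 3). In this list 25 genes were called lower in MM1.S and 0 in JJN3 (38 and 1, EDEM3, with the block).

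**Figure D3:**
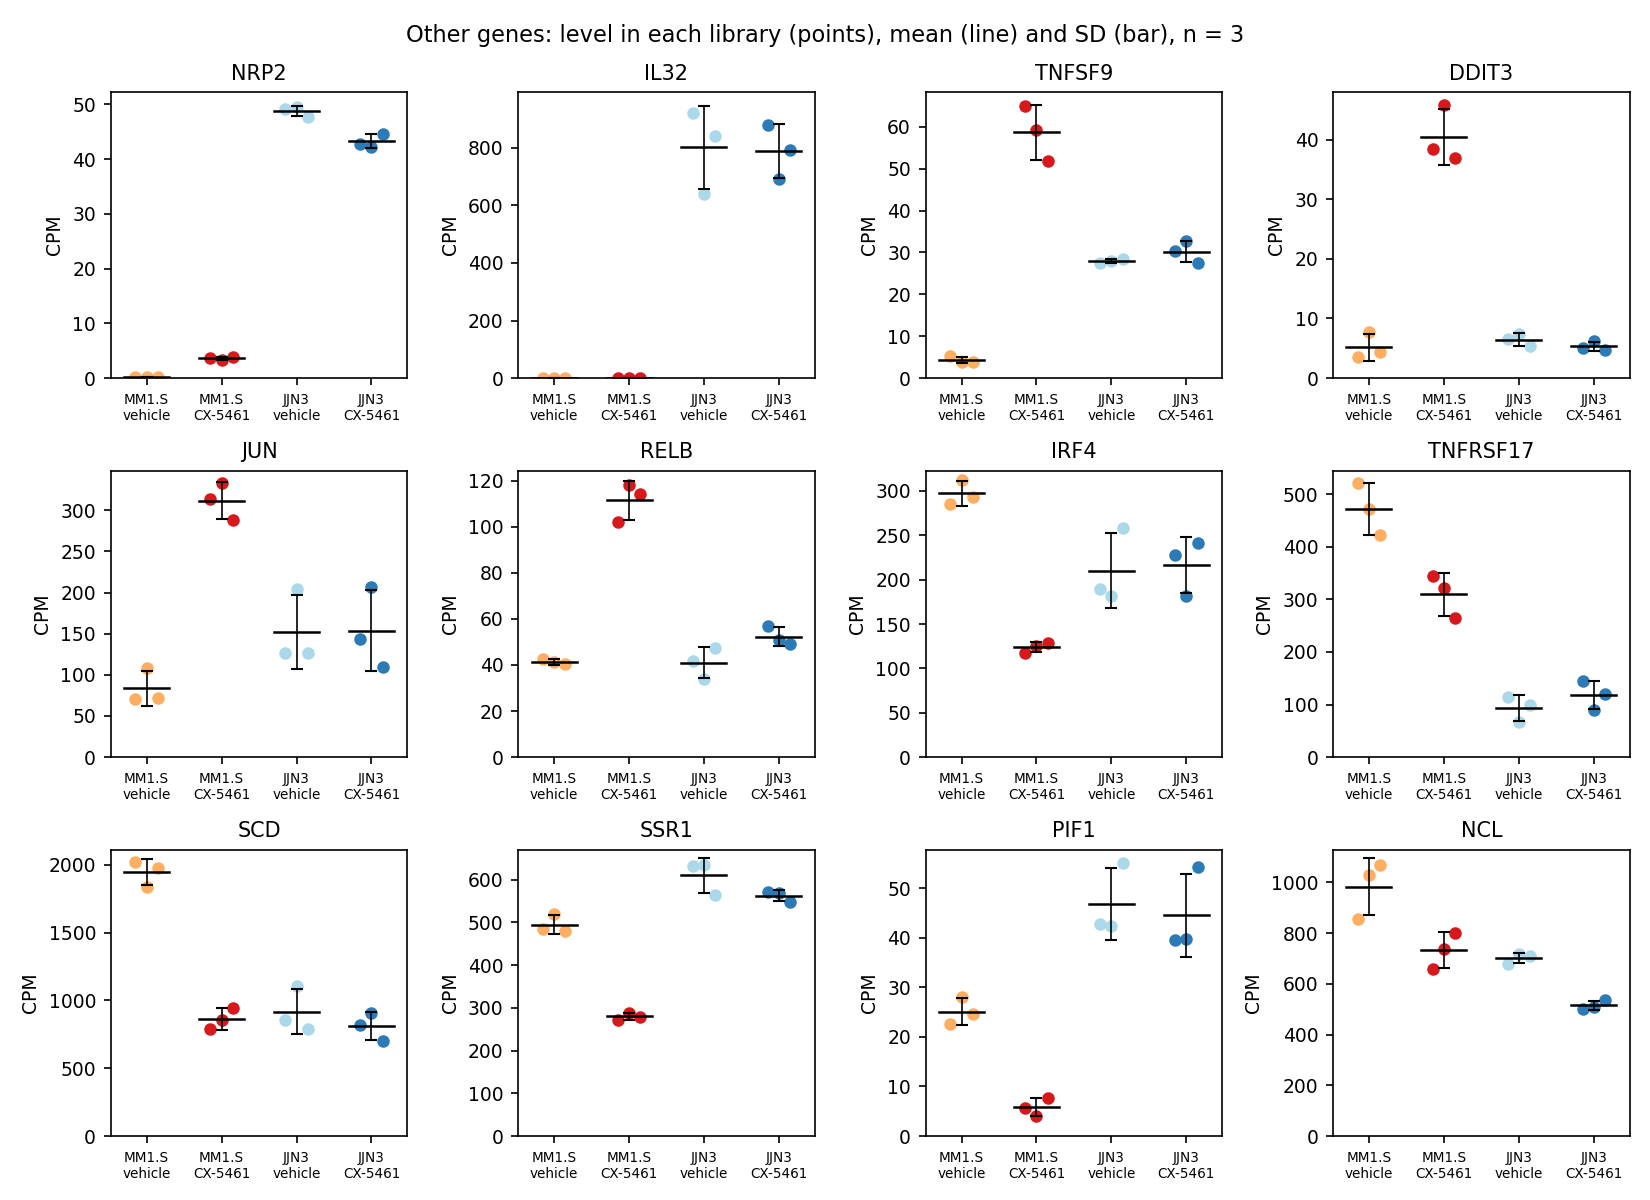
Level in CPM of 12 genes outside the p53 lists in each library (points), with the mean (line) and SD (bar) of the 3 libraries of each group; every axis starts at 0. NRP2 and IL32 are much higher in JJN3 than in MM1.S, IRF4, TNFRSF17, SCD, SSR1 and PIF1 are lower with CX-5461 in MM1.S while their JJN3 groups overlap, and NCL is lower with CX-5461 in both lines.

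PIF1, a helicase that unwinds G-quadruplexes, the DNA structures that CX-5461 is reported to stabilise, stood at 22.6, 28.0 and 24.6 CPM in MM1.S with vehicle and 5.61, 4.12 and 7.68 CPM with CX-5461. In JJN3 it stood at 42.8, 42.4 and 55.1 CPM and 39.5, 39.8 and 54.2 CPM. The MM1.S groups were apart and the JJN3 groups overlapped, with a difference of 2.03 ± 0.32 (adjusted p = 2.39e-04). CDC20, which activates the anaphase-promoting complex, differed by 0.97 ± 0.25 (adjusted p = 0.0473), a call lost in 8 of 12 leave-one-out fits (highest adjusted p 0.165, without MM1.S CX-5461 replicate 1). PIF1 and CDC20 were the 2 of 55 tested mitosis genes that differed (3 below and 9 above 0 with the block). CCNB1, the mitotic cyclin, fell in MM1.S (-0.70 ± 0.15), and its difference of 0.69 ± 0.21 had an adjusted p of 0.121, or 0.0124 with the block. It was also called without MM1.S CX-5461 replicate 3 (adjusted p = 0.0223).

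RAB36 and GCSAM were the named genes above 0 with the largest effects in JJN3. RAB36, a small GTPase of vesicle traffic, had 4 counts over the JJN3 vehicle libraries and 25 with CX-5461, while MM1.S held 75.4 ± 3.00 and 47.3 ± 2.40 CPM. Its JJN3 effect of 2.53 ± 0.56 was not called (adjusted p = 0.0934) except with the replicate block (adjusted p = 0.0246), its MM1.S effect of -0.67 ± 0.16 was called, and the difference was 3.20 ± 0.57 (adjusted p = 0.00129). GCSAM, a signalling adaptor of germinal centre B cells, rose in JJN3 from 1.6, 1.08 and 1.52 CPM to 4.20, 4.32 and 4.05 CPM and stood at 19.3 ± 0.785 and 19.6 ± 2.31 CPM in MM1.S. The GCSAM difference of 1.55 ± 0.37 (adjusted p = 0.0227) was lost in 5 of 12 leave-one-out fits (highest adjusted p 0.07, without JJN3 vehicle replicate 2).

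The other named genes above 0 were PLEKHA8, a lipid transfer protein (1.15 ± 0.24, adjusted p = 0.0071), UAP1, which makes the sugar donor for glycosylation (0.96 ± 0.18, adjusted p = 0.00245), and ANXA2, a calcium-dependent membrane protein (0.98 ± 0.21, adjusted p = 0.0113), along with RNF103, EBPL and JAKMIP2. The last 3 differed by 1.04 ± 0.27, 1.02 ± 0.26 and 1.00 ± 0.25 (adjusted p = 0.0477, 0.0335 and 0.0375). Each of them lost its call in 10 of 12 leave-one-out fits, the highest adjusted p being 0.193, 0.147 and 0.126 without JJN3 vehicle replicate 3, MM1.S CX-5461 replicate 1 and JJN3 CX-5461 replicate 1. ANXA2 lost its call without MM1.S vehicle replicate 1 (adjusted p = 0.0513).

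Among the genes nearest to the known target of the drug, none was called between the lines without the replicate block. Tested were 20 genes of the RNA polymerase I machinery, 62 of ribosome biogenesis and the nucleolus and 61 of cytosolic ribosomal proteins. By edgeR 0 of them were called in either direction, against 1.32% of all tested genes. Lists of this size would hold few calls at that share, so the count of 0 does not set them apart. Their median differences were 0.04, 0.09 and 0.04. With the replicate block 1 polymerase I gene and 2 ribosomal protein genes were called, all below 0, against 4.52% of all tested genes in either direction. NCL, the nucleolar protein nucleolin, stood at 854, 1028 and 1069 CPM in MM1.S with vehicle and 659.8, 736 and 801 CPM with CX-5461. JJN3 held 679.8, 718 and 709 CPM and 501, 509 and 536 CPM. In both lines all CX-5461 libraries lay below all vehicle libraries, an order found for 15.9% of tested genes in MM1.S and 4.97% in JJN3. The line effects were -0.43 ± 0.11 in MM1.S (adjusted p = 0.0077) and -0.45 ± 0.11 in JJN3 (adjusted p = 0.116, and 0.00433 with the replicate block), and the difference of -0.02 ± 0.15 had a 95% interval of -0.33 to 0.29. NPM1, nucleophosmin, was laid out in the same way, with line effects of -0.45 ± 0.10 and -0.38 ± 0.10, of which the former was called without the block and the latter with it (adjusted p = 0.00617, against 0.198), and a difference of 0.07 ± 0.14 (95% interval -0.22 to 0.37). POLR1A, the largest subunit of RNA polymerase I, and UBTF, its promoter factor, differed by 0.52 ± 0.33 and 0.23 ± 0.20 (95% intervals -0.16 to 1.2 and -0.18 to 0.63). All 4 intervals include 0, and those of POLR1A and UBTF also include differences beyond 0.5.

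**Figure D4:**
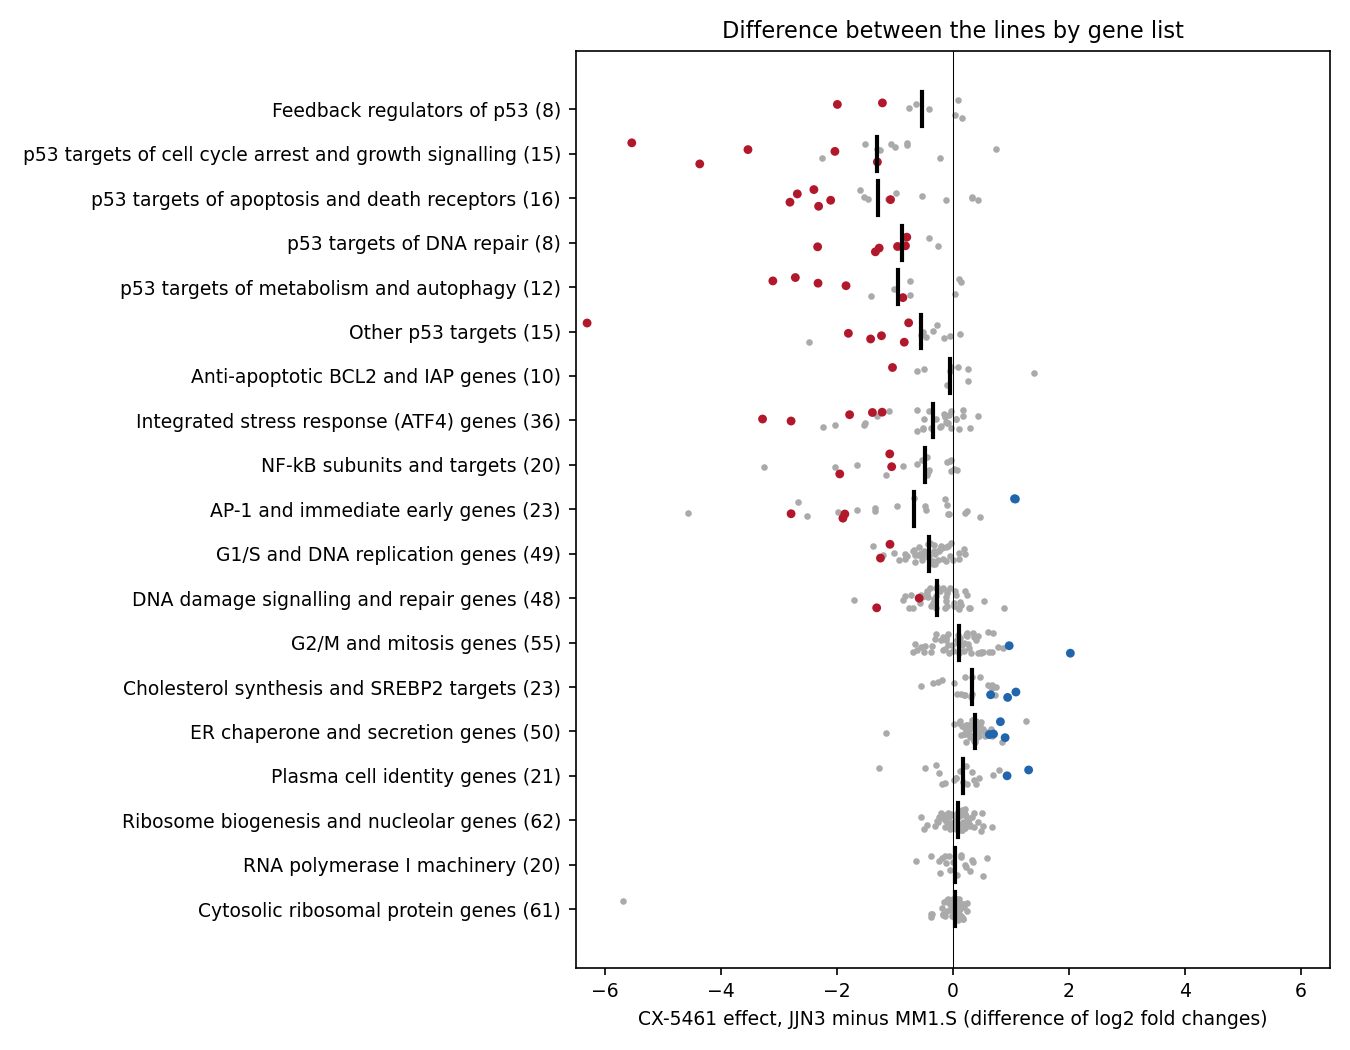
Difference in the CX-5461 effect between the lines (JJN3 minus MM1.S, log2) for each tested member (points) of 19 gene lists, with the number tested in parentheses and the median as a black bar; red and blue points were called below and above 0. The p53 lists, the stress response and the immediate early genes reach far below 0, cholesterol and secretion genes lie mostly above 0, and the 3 ribosome lists have medians near 0, with RPS9, which was not called, at -5.69.

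The genes that MM1.S changed leaned the same way in JJN3, where FOXQ1, CHD2 and NDUFV2 were called in the same direction (24 of those higher and 24 of those lower with the replicate block). Of 826 genes called higher in MM1.S, 569 (68.9%) had a positive log2 fold change in JJN3, against 48.3% of all tested genes, and their median in JJN3 was 0.13 beside 0.92 in MM1.S. Of 494 genes called lower in MM1.S, 375 (75.9%) were negative in JJN3, against 48.9% of all, with medians of -0.11 and -0.56. The libraries of the lines are separate, so these shares come from independent samples. The difference itself was not called for 696 of the 826 and 460 of the 494. For the median gene the 95% interval of the difference reached 0.61 to either side, before adjustment for the number of genes tested. Fitted alone, MM1.S had a common coefficient of biological variation of 0.107 and JJN3 one of 0.154.

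The 8 genes that CX-5461 changed in JJN3 were RND3, CHD2, CHRNA5, GAPDH, NDUFV2 and ARID5A, lower, and GCSAM and FOXQ1, higher. RND3, a protein that opposes RhoA, fell by 0.91 in JJN3 from 48.1 to 25.5 CPM. RND3 (-1.25 ± 0.26, adjusted p = 0.00755) and GCSAM differed between the lines, and with the replicate block so did CHRNA5, GAPDH and ARID5A (adjusted p = 0.0137, 0.00295 and 0.00152). CHD2, a chromatin remodeller, and NDUFV2, a subunit of respiratory complex I, fell in both lines, by 0.86 and 0.59 in JJN3 and by 0.74 and 0.77 in MM1.S. FOXQ1, a forkhead transcription factor, was called higher in both, at 2.70 ± 0.48 in JJN3 and 3.51 ± 1.04 in MM1.S. These effects rest on few counts. FOXQ1 had 1 count over the MM1.S vehicle libraries and 19 with CX-5461, and 16 and 106 counts in JJN3. GAPDH, a glycolytic enzyme that is often used as a reference gene, fell by 0.78 in JJN3 and was at 0.00 in MM1.S, and the difference was not called without the block (adjusted p = 0.0531). Leaving out JJN3 CX-5461 replicate 1 left none of these 8 calls.

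The same comparison of the lines on top of panobinostat used the other 12 libraries. There the effect of adding CX-5461 to panobinostat differed between the lines for 89 genes (0.691%; 52 below 0, 0.404%, and 37 above 0, 0.287%; 770, or 5.98%, with the replicate block). Of the 133 genes below 0 without panobinostat, 83 were below 0 with it, against 47.5% of all tested genes, and the median difference was -0.19 in place of -1.4. MDM2, IL32, PDE4D and TMEM250 were called below 0 in both, and RAP2B and DTX3L were called in opposite directions. Of the 37 genes above 0, 29 were above 0 with panobinostat, where 47.5% of all tested genes were below 0. SCD was called in both, at 0.99 ± 0.19 without and 1.09 ± 0.19 with panobinostat. The named genes among these 7 are MDM2, IL32 and SCD, and the other 4 were picked out after their values were seen.

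Among the p53 targets MDM2 kept a difference and CDKN1A did not. With panobinostat MDM2 stood at 179.9 ± 34.9 CPM in MM1.S and at 469 ± 77.8 CPM with both drugs, while JJN3 held 47.0 ± 6.5 and 45.1 ± 9.29 CPM. The difference was -1.44 ± 0.22 (adjusted p = 0.00166). CDKN1A stood at 109 ± 21 and 137 ± 11.1 CPM in MM1.S, and at 61.8 ± 9.47 and 107 ± 15.4 CPM in JJN3, where the rise of 0.80 ± 0.16 was called (adjusted p = 0.00547; 1.42% of genes were called higher there) and that of 0.33 ± 0.16 in MM1.S was not (0.878% were). The difference of CDKN1A was 0.47 ± 0.22 on top of panobinostat (adjusted p = 0.366). BBC3, FDXR, PMAIP1 and TNFSF9 had differences of -0.70 ± 0.23, -0.17 ± 0.33, -0.00 ± 0.30 and 0.23 ± 0.25 there, none of them called. Over the 74 p53 targets the median difference was -0.01 with panobinostat, and 1 member was called below 0 (MDM2) and 1 above 0 (RAP2B).

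Whether the line difference itself changed with panobinostat was tested as a contrast of all 8 groups, a comparison added after the data were seen. It was called for 38 genes (0.295%), 36 of them more negative without panobinostat (0.28%) and 2 more positive (0.0155%), and for 265 with the replicate block (2.06%). Of the 133 genes, 32 were called in this contrast, which shares the libraries that chose them. CDKN1A (-4.0 ± 0.33, adjusted p = 5.68e-09), TNFSF9 (-3.87 ± 0.39, adjusted p = 2.7e-07), IER5 (-2.01 ± 0.26, adjusted p = 6.07e-05) and PPM1D (-1.74 ± 0.26, adjusted p = 6.27e-04) were among them. MDM2 was not, at -0.55 ± 0.31 (adjusted p = 0.658).

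**Figure D5:**
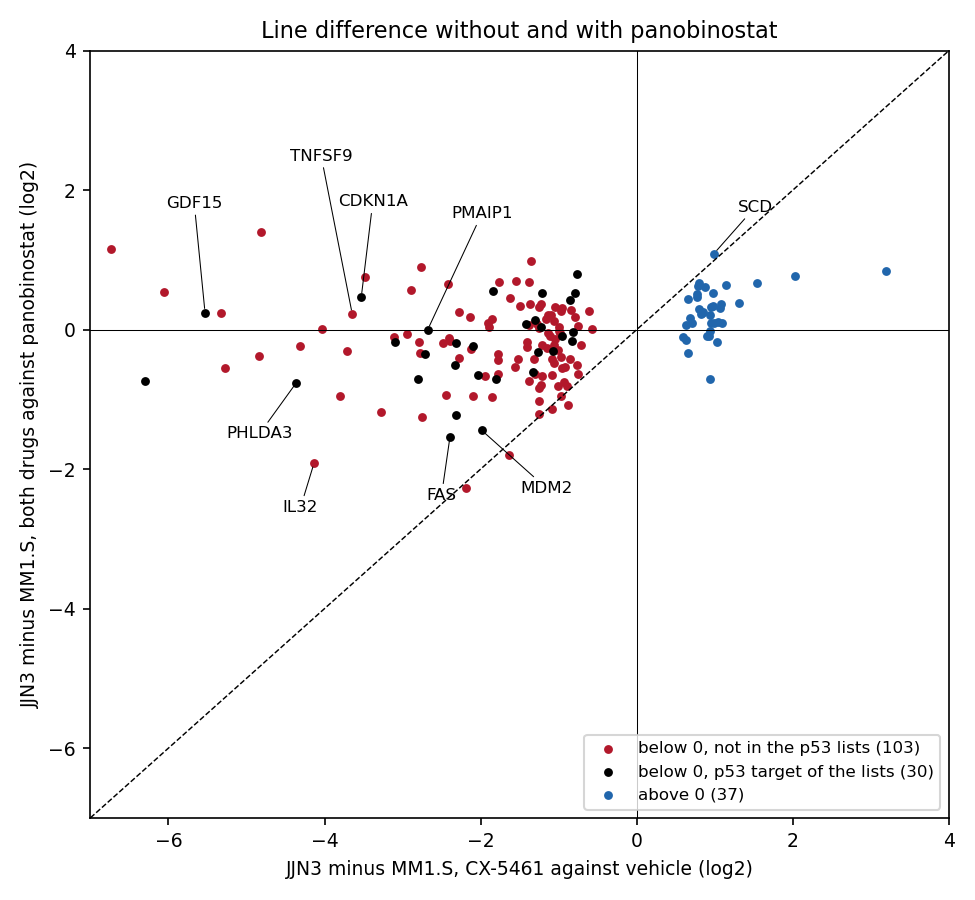
Difference between the lines in the effect of CX-5461 against vehicle (horizontal) and in the effect of adding CX-5461 to panobinostat (vertical) for the 170 called genes, with black points for p53 targets; the 2 axes use separate libraries and the dashed line marks equal differences. Most points with a large negative horizontal value lie near 0 on the vertical axis, while MDM2, IL32 and SCD are among those that keep their sign and were called on both. The genes were chosen by their horizontal values.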

How the data were processed

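Polyadenylated RNA of 24 libraries (8 groups of 3) was sequenced near the 3′ end, per the labels' protocols. The authors deposited raw counts per gene in 1 table per line; the submitters' processing notes name HISAT2 2.2.1, featureCounts 2.0.1, limma 3.50.0 and the build hg19/GRCh37 without a role or order. Whether counting used strand is not given in the sources used here, so overlapping, antisense and near-identical genes may share counts. Of 28395 identifiers, 650 had no symbol and held at most 0.0387% of a library's counts.

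The tables were joined by Entrez ID and fitted together in edgeR 4.0.16 (R 4.3.3): trimmed mean of M values scaling, the default filter by expression (12872 genes), robust quasi-likelihood fit of 8 group means and F tests with Benjamini-Hochberg adjustment, called under 0.05. The SE is the log2 value divided by the root of F. The code was tested on simulated counts. Alternatives were library size scaling, the scaling of DESeq2 (RLE), the Wald test of DESeq2 1.42.0, limma 3.58.1 voom with weights by line, other filters, the 12 libraries alone, a replicate block, and leaving out each library. Same-numbered libraries deviated together (correlation of deviations over 7988 genes 0.121 to 0.255 in MM1.S and 0.535 to 0.669 in JJN3). The numbers in the titles were taken to pair the libraries in the replicate block only. The main fit ignored this pairing, and so do all calls given without the block. No replicates agreed within sampling noise.

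Named were the 15 genes with the most negative and the 15 with the most positive called difference (average log2 CPM of at least 2, at least 10 counts in each line), a panel of 50 genes, and up to 2 called members of each list with the smallest adjusted p. The members, the 37 lists and the tests were chosen with earlier results of these data known. The lists on heat shock chaperones, lysosome, and long noncoding RNAs had 1 called member each (AHSA1 above 0, DRAM1 and PVT1 below 0), and those on MYC, proteasome, antigen presentation, ligands of NK cells, oxidative phosphorylation and histones had 0. With the replicate block the lists on long noncoding RNAs and lysosome had 4 and 2 members below 0, antigen presentation by class I 1 below 0, and oxidative phosphorylation 2 above 0. Promoter sequences are from RefSeq, build GRCh38.p14, matched by Entrez ID for 10323 of 12872 tested genes. No coordinates of the count tables' own build were used. Some genes of the panel and the lists are not reported here, and the counts include them.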

Additional observations from a re-analysis of the deposited data

Results flagged for a closer look

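The effect of CX-5461 differed between the lines by the test of the difference itself for each of the following named genes, given with the log2 difference, JJN3 minus MM1.S. The most negative differences were GDF15 -5.53, PHLDA3 -4.36, NRP2 -4.31, IL32 -4.13, TNFSF9 -3.64, CDKN1A -3.53, DDIT3 -3.28 and VWCE -3.11. Next came FDXR -3.10, CREB5 -2.94, BBC3 -2.80, ATF3 -2.79, TENT5A -2.78, GPR55 -2.76, GLS2 -2.71 and PMAIP1 -2.68. These were followed by FAS -2.39, DDB2 -2.33, DRAM1 -2.32, TNFRSF10B -2.10, MDM2 -1.99, JUN -1.89, IER5 -1.86 and TIGAR -1.84. Further below 0 were NINJ1 -1.80, RPS27L -1.33, EXO1 -1.31, ZMAT3 -1.30, XPC -1.27, GINS4 -1.24, SLC12A4 -1.23 and TRIB3 -1.22. Smaller still were PPM1D -1.21, LIG1 -1.08, RELB -1.08, BIRC3 -1.05, POLH -0.81, RRM2B -0.79 and RAD51C -0.58. Above 0 the differences were RAB36 3.20, PIF1 2.03, GCSAM 1.55, IRF4 1.31, PLEKHA8 1.15, MSMO1 1.09, KLF2 1.08 and DUSP6 1.07. After them came RNF103 1.04, EBPL 1.02, JAKMIP2 1.00, SCD 0.99, ANXA2 0.98, CDC20 0.97 and UAP1 0.96. The list went on with TNFRSF17 0.94, SPCS2 0.90, PDIA4 0.82, SSR1 0.70 and FDFT1 0.65. Groups of 3 libraries are too small for a test of outlying samples, so none was made.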

How the results depend on the processing

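No named gene that was called changed the direction of its difference under any of the 21 alternatives. Of those not called, NCL (4 alternatives, up to 0.06), TOP2A (7, up to 0.12) and 1 gene not reported here changed sign near 0. The 170 genes that differed became 310 with no filter and 582 with the replicate block. Those below 0 (133) became 239 and 372. Those above 0 (37) became 62 with DESeq2, 71 with no filter and 210 with the block. The 1320 genes of MM1.S became 2011 with limma-voom, 1825 without the 4 JJN3 libraries of replicate 2 and 2580 with the block, and the 8 of JJN3 became 41 with DESeq2, 3 with limma-voom, 58 with no filter and 123 with the block. On top of panobinostat 89 became 246 with DESeq2, 321 with no filter and 770 with the block. Leaving out 1 library gave 108 to 245 genes, 91 to 175 below 0, 17 to 70 above 0, 801 to 1443 in MM1.S, 0 to 14 in JJN3 and 68 to 129 on top of panobinostat. Promoters of genes below 0 with a p53 pair made up 0.952% at 2 and 12.4% at 4 mismatches. The cause of these changes was not tested. Among named genes the block ended the call of ATF3 and added SESN1, BAX, AEN, HMGCS1, TOP2B, TK1, CDT1 and CCNB1, and it changed the call of no other difference. It added the line effects of BTG2 in MM1.S and of RAB36, DUSP6, ZMAT3, INSIG1, NCL and NPM1 in JJN3. The fit of the 12 libraries alone ended the calls of CREB5, ATF3, GPR55, MSMO1, JAKMIP2, CDC20, PDIA4, TNFRSF17 and RAD51C, and limma-voom those of GCSAM, RNF103 and JAKMIP2. DESeq2 added AEN, SAT1, TOP2B and CDT1, and limma-voom added AEN. No filter added SESN1, SESN2, BAX, AEN, SAT1, HMGCS1, TK1 and CDT1. SAT1 was also added by the 12 libraries alone, and CDT1 by library size scaling and by the filter in both lines. Leaving out the JJN3 libraries of replicate 2 added SAT1, TK1 and CDT1. The p53 targets below 0 (30) numbered 25 to 38 over all alternatives. DESeq2 shared 168 of the 170 genes, limma-voom 152 and the fit of the 12 libraries alone 131. Of the 60 named genes that were called, 37 stayed called whichever library was left out. Precision was limited by 3 libraries per group and by low counts of genes such as GDF15, PHLDA3, NRP2 and IL32.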
